A study of Mus musculus with 2 samples.

Results

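The ryanodine receptor and L-type calcium channel genes are the 7 genes for the 2 channels that couple excitation to contraction in skeletal muscle and for the proteins bound to them: Ryr1, Cacna1s, Cacnb1, Cacng1, Cacna2d1, Stac3 and Fkbp1a. They were taken by gene name from the transcript tables of both libraries. All 7 had reads, in 152 transcript models of 58867 in replicate 1 and in 183 models of 97558 in replicate 2, out of 15324 annotated mouse genes with at least 1 read. The study read RNA from the gastrocnemius, a calf muscle, of 36-day-old female B6CASTF1/J mice, a cross whose first-generation offspring carry 1 genome of C57BL/6J and 1 of CAST/EiJ. Long-read RNA sequencing, in which 1 read follows 1 molecule across its exon junctions, was done on 2 libraries, each from 2 µg of total RNA with spike-in transcripts added. No treatment or genotype was compared. The labels number the libraries as biological replicates from differently numbered females under 1 donor entry, and nothing else states that the animals were kept apart. The p-values set the difference between these 2 libraries against counting error alone and measure no spread between animals.

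In skeletal muscle the voltage sensor in the transverse tubule membrane, the L-type channel Cav1.1, is physically linked to the ryanodine receptor RyR1 in the facing membrane of the sarcoplasmic reticulum. A change in voltage moves Cav1.1, which opens RyR1, and calcium leaves the store to start contraction. Cacna1s encodes the pore and voltage sensor of Cav1.1, Cacnb1 its intracellular β1 subunit, Cacng1 the γ1 subunit and Cacna2d1 the extracellular α2δ-1 subunit. Stac3 is an adaptor needed for the coupling, and Fkbp1a encodes FKBP12, the immunophilin that binds RyR1. Several of these genes have short exons whose use is known to change with muscle development or between tissues, and long reads show which of them were joined in 1 molecule.

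The exons on which the splicing results turn are shown here from the GENCODE M21 transcripts, 5′ to 3′, with the exon in capitals and 20 nt of the neighbouring exon on either side in lower case. They are exon 70 (15 nt, chr7:29056234-29056248, minus strand) and exon 83 (18 nt, chr7:29044919-29044936, minus strand) of Ryr1-202, the known alternatively spliced segments I and II of RyR1. Next come exon 29 of Cacna1s-204 (57 nt, chr1:136104570-136104626, plus strand), which is left out of the embryonic form of Cav1.1, and the alternative exons 7 of Cacnb1-203 (155 nt, chr11:98011343-98011497) and Cacnb1-201 (20 nt, chr11:98010627-98010646), both on the minus strand. The last pair is exon 19 of Cacna2d1-201 (57 nt, chr5:16322539-16322595, plus strand) and exon 23 of Cacna2d1-203 (21 nt, chr5:16341990-16342010, plus strand). All positions are mm10.
Ryr1 exon 70: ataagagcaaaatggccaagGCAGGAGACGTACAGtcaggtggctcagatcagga
Ryr1 exon 83: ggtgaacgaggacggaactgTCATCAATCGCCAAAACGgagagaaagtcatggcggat
Cacna1s exon 29: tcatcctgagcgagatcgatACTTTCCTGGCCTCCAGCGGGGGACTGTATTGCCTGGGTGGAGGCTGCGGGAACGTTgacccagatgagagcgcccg
Cacnb1 exon 7, long: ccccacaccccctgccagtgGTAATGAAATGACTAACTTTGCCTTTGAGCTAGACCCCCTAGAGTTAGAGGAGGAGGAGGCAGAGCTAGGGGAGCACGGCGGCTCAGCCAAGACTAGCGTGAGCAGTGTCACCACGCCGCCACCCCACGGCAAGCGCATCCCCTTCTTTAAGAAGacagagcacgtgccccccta
Cacnb1 exon 7, short: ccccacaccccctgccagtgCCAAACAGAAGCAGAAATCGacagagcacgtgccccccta
Cacna2d1 exon 19: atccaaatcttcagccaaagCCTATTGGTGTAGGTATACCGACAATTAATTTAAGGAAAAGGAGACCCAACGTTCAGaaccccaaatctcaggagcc
Cacna2d1 exon 23: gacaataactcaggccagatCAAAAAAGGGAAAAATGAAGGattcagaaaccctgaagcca

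Replicate 1 gave 797105 reads that fell in annotated mouse genes and replicate 2 gave 1602272. Levels below are in CPM, the reads of a gene scaled to these totals. The 6 genes listed for fast skeletal muscle summed to 218530 CPM (replicate 1) and 165954 CPM (replicate 2). Most of this was Acta1 (75111 and 60934 CPM) and Ckm (83072 and 61342 CPM), which are not particular to fast fibres. The others were Mylpf (28581 and 25071 CPM), Myh4 (18180 and 10939 CPM), Actn3 (9923 and 3491 CPM) and Tnnt3 (3663 and 4177 CPM). The 6 listed genes of slow fibres summed to 17.6 CPM and 7806 CPM, with Myh7, Myl2 and Myl3 at 0 in replicate 1. Heart genes summed to 0 CPM and 1.25 CPM, with Nppa and Ryr2 at 0 in both libraries. Summed over 4 genes each, blood genes had 2543 CPM (replicate 1) and 550 CPM (replicate 2), adipocyte genes 389 and 69.9 CPM, Schwann cell genes 223 and 79.3 CPM, and fibroblast genes 837 and 518 CPM. Smooth muscle, endothelial and immune genes summed to at most 57.7 CPM in either library.

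Together the 7 genes made up 0.212% of reads in replicate 1 and 0.184% in replicate 2, 1686 and 2955 reads. None of the 7 passed the test between the libraries, where a gene was called if its adjusted p was below 0.05 and its CPM differed 2-fold or more (Fisher's exact test, two-sided, Benjamini-Hochberg over 8096 genes). Of all genes tested, 11.3% were called. The members' median log2 ratio of replicate 2 over replicate 1 was -0.23, beside 0.05 for all genes tested. In 3 of the 7 genes both the unadjusted and the adjusted p were under 0.05, at differences below 2-fold. A lower read share in such a library can come from fewer fibres or from less RNA per fibre, which cannot be told apart in whole tissue.

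Ryr1 (ENSMUSG00000030592.18, chr7:29003344-29125179, minus strand), the release channel itself, had 523 reads in replicate 1 and 888 in replicate 2. This is 656 and 554 CPM, or 605 ± 72.1 CPM (SD, n = 2), and replicate 2 was at 0.845 times replicate 1 (95% interval 0.757 to 0.943, adjusted p = 0.0161 by Fisher's exact test). Cacna1s (ENSMUSG00000026407.17, chr1:136052750-136119822, plus strand), the voltage sensor, had 460 and 789 reads, 577 CPM in replicate 1 and 492 CPM in replicate 2. Its mean was 535 ± 59.9 CPM (SD, n = 2) and its ratio 0.853 (0.760 to 0.959, adjusted p = 0.0390 by Fisher's exact test). Both channel genes were thus lower in replicate 2 by a similar factor that did not reach 2-fold. Cacnb1 (ENSMUSG00000020882.17, chr11:98001508-98023034, minus strand) had 219 and 409 reads, 275 CPM in replicate 1 and 255 CPM in replicate 2, or 265 ± 13.8 CPM (SD, n = 2). The ratio of this subunit gene was 0.929 (0.787 to 1.10), which spans no difference.

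Cacng1 (ENSMUSG00000020722.5, chr11:107703218-107716522, minus strand), whose γ1 product limits the calcium current of Cav1.1, had 179 reads in replicate 1 and 303 in replicate 2. Its level was 225 CPM in replicate 1 and 189 CPM in replicate 2, or 207 ± 25.1 CPM (SD, n = 2), and the interval of its ratio ran from 0.698 to 1.02. Cacna2d1 (ENSMUSG00000040118.15, chr5:15934691-16374511, plus strand) had 45 and 46 reads, 56.5 CPM in replicate 1 and 28.7 CPM in replicate 2. It had the widest spread of the 7 in proportion to its mean, 42.6 ± 19.6 CPM (SD, n = 2). Its ratio of 0.509 (0.330 to 0.785, adjusted p = 0.0115 by Fisher's exact test) lay just short of the 2-fold limit, and with 4 other scalings of the libraries it was called lower, at 0.467 to 0.493. Stac3 (ENSMUSG00000040287.9, chr10:127501686-127508823, plus strand) had 32 and 55 reads, 40.1 CPM in replicate 1 and 34.3 CPM in replicate 2, or 37.2 ± 4.11 CPM (SD, n = 2). Fkbp1a (ENSMUSG00000032966.14, chr2:151542483-151561692, plus strand) had 228 and 465 reads, 286 CPM in replicate 1 and 290 CPM in replicate 2, or 288 ± 2.95 CPM (SD, n = 2). The intervals of these last 2 ratios, 0.543 to 1.37 for Stac3 and 0.864 to 1.19 for Fkbp1a, include no difference. ISM and Genomic models are classes of reads that hold part of a transcript or lack its annotated splicing. Without them, Stac3 was at 0.246 (adjusted p = 0.00441 by Fisher's exact test) and called lower. Fkbp1a was then at 0.579 (adjusted p = 2.64e-05 by Fisher's exact test), and in models that match an annotated transcript at 0.521 (adjusted p = 5.94e-07), neither a 2-fold difference. A read here is counted as 1 molecule whatever its length, but long transcripts gave fewer complete reads, so levels are not ranked between genes. The 3 annotated Fkbp1a pseudogenes, which could share reads with Fkbp1a, had 0 reads in both libraries.

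**Figure D1:**
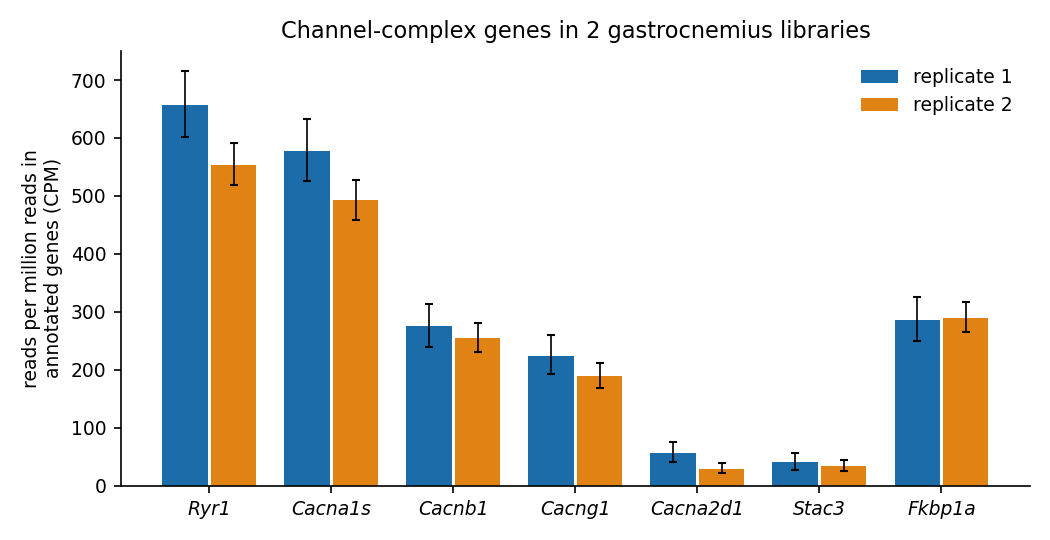
Level of each of the 7 genes in replicate 1 (blue) and replicate 2 (orange), in CPM, with exact 95% counting intervals. Ryr1 stands at 656 and 554 CPM, and the bars of Cacna2d1, 56.5 and 28.7 CPM, differ most in proportion.

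The close relatives of these genes were nearly silent. Of 27 other ryanodine receptor, voltage-gated calcium channel, Stac and FKBP genes, 16 had 0 reads in both libraries, which allows up to 3.76 CPM in replicate 1 and 1.87 CPM in replicate 2. Among these were Ryr2, the heart's release channel, Cacna1c, the pore of the heart's L-type channel, the β subunit genes Cacnb2 and Cacnb3, and Stac and Stac2. Ryr3 had 1 read in each library, Cacnb4 had 2 in each, and Fkbp1b, which encodes FKBP12.6, had 0 in replicate 1 and 2 in replicate 2. Cacng6, a second γ subunit gene of striated muscle, was the exception, with 142 and 180 reads. Its levels were 178 CPM and, in replicate 2, 112 CPM, a ratio of 0.631 (adjusted p = 5.8e-04 by Fisher's exact test) that was not called at 2-fold. Cacna2d3 had 6 reads in replicate 1 and 19 in replicate 2. These 2 genes were the members of the family with enough reads to be tested, and neither was called.

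Among 33 other genes of excitation-contraction coupling, all with enough reads to be tested, 3 were called higher and 5 lower in replicate 2, beside 5.78% and 5.47% of all genes tested. Their median log2 ratio was -0.13. The 3 higher genes were Casq2, the calsequestrin of heart and slow fibres (4 reads in replicate 1 and 68 in replicate 2), Atp2a2, the calcium pump SERCA2 (11 and 199 reads), and Sln, the pump inhibitor sarcolipin (1 and 25 reads). The slow-fibre genes summed to 17.6 CPM in replicate 1 and 7806 CPM in replicate 2, and their part in these 3 differences was not tested. The 5 lower genes were Atp2a1, the fast-fibre pump SERCA1 (110003 CPM in replicate 1 and 30171 CPM in replicate 2), Srl (1937 and 912 CPM), Calm3 (539 and 187 CPM), Homer1 (56.5 and 22.5 CPM) and Mtm1 (21.3 and 6.87 CPM). The 5 of the list with the highest mean CPM over both libraries, named without ranking genes by level, were Atp2a1, Casq1 (6855 CPM in replicate 1 and 4119 CPM in replicate 2), Hrc (3219 and 6297 CPM), Pvalb (4922 and 4587 CPM) and Trdn (1563 and 2902 CPM). In replicate 1 alone Srl and Tmem38a (1812 CPM) were above Trdn. Hrc and Casq1 bind calcium in the reticulum, parvalbumin binds it in the cytosol, and triadin joins calsequestrin to RyR1.

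How completely a molecule was read decided which questions could be asked of each gene. TALON, the program named in the deposited annotation, calls a model known when it matches an annotated transcript, ISM (incomplete splice match) when it holds a consecutive part of one, NIC or NNC when it joins splice sites in an unannotated way, and Genomic when it overlaps a gene without its splicing. Of the reads of the 7 genes, 39.6% in replicate 1 and 24.6% in replicate 2 were in known models. Cacnb1 had 80.4% and 71.4% in known models, Cacng1 76.0% and 71.3%, and Fkbp1a 62.3% and 32.5%. Cacna1s had 42.6% and 7.22%, Cacna2d1 28.9% and 19.6%, Stac3 15.6% and 3.64%, and Ryr1 none of 523 and none of 888 reads. In each of the 6 genes with known reads the share was lower in replicate 2, and over all genes the same order of libraries was seen. The median share of known reads was 89.3% in replicate 1 and 86.7% in replicate 2 for 1184 genes whose longest coding transcript is under 2000 nt. For 205 genes of 6000 nt or more it was 38.5% and 21.4%, so the low shares of Cacna1s and Ryr1 stand beside a low share of long genes in general. Length did not sort all members. The longest coding transcripts of Cacng1, Stac3 and Fkbp1a have 1249, 1790 and 1658 nt. Their known shares lay below the medians of genes under 2000 nt in both libraries.

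**Figure D2:**
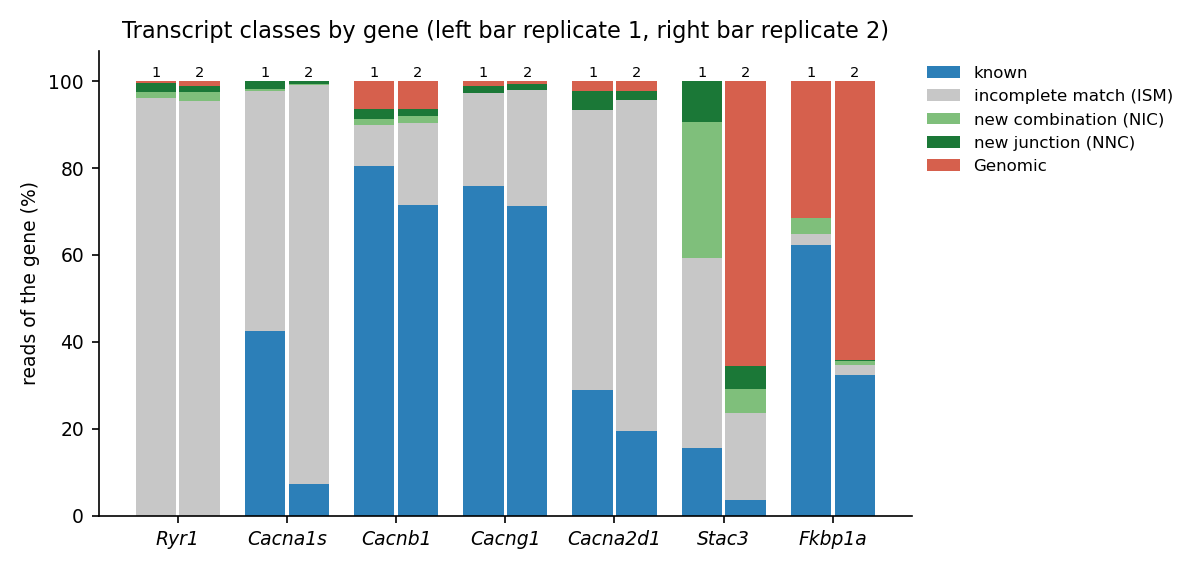
Share of each gene's reads by TALON class, with replicate 1 as the left bar and replicate 2 as the right bar of each pair. Known models (blue) take 80.4% and 71.4% of Cacnb1 reads and none of Ryr1, where ISM models (grey) take 96.2% and 95.4%.

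Ryr1 molecules were read from their 3′ end and ended long before their start. The transcript Ryr1-202 has 106 exons in 15358 nt, and only 2 reads in replicate 1 and 1 in replicate 2 began at the annotated first exon. The leading model held the last 16 exons (191 reads, 36.5%, in replicate 1 and 207 reads, 23.3%, in replicate 2). Models with the last 15 exons (92 and 145 reads), the last 12 (39 and 101) and the last 3 (28 and 81) followed. The same suffixes therefore led in both libraries, with a larger share of the short ones in replicate 2. Of 89 distinct Ryr1 models, with the single-exon models of a class counted as 1, 28 were found in both libraries. These shared models held 96.0% of Ryr1 reads (replicate 1) and 94.7% (replicate 2).

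More reads were in models that ended in exon 91 (chr7:29019475-29020266, 792 nt) than in any other exon. They made up 38.2% of Ryr1 reads in replicate 1 and 24.4% in replicate 2. Exon 91 is the longest of the 106 exons and also the one with the highest GC content, 70.7%. Replicate 1 had 270 reads and replicate 2 had 294 that crossed the junction from exon 92 into exon 91, and 70 and 77 crossed the next junction into exon 90. Thus 74.1% of the reads that entered exon 91 in replicate 1, and 73.8% in replicate 2, went no further. In exon 92, 71 nt long and second in GC content at 69.0%, 25.6% and 33.5% of entering reads ended, and in exon 90, 342 nt long at 57.6% GC, 17.1% and 22.1% did. In exon 94, 87 nt at 44.8% GC, the shares were 0.270% and 0.652%. Other exons were out of this order of GC content. In exon 85, 89 nt at 49.4% GC, 29.2% of 24 entering reads and 14.6% of 41 ended. In exon 98, 131 nt at 61.1% GC, 3.23% and 5.39% did. The part of exon length or GC content in these ends was not tested. These are ends of deposited models, so where within an exon each read stopped is not known. The leading model, of 16 exons, was 2586 nt long in replicate 1, which takes in all of exon 91, and 2021 nt in replicate 2. The 100-nt stretch of exon 91 with the most G and C (87%, chr7:29019853-29019952, minus strand) is shown for its composition.
Ryr1 exon 91, part: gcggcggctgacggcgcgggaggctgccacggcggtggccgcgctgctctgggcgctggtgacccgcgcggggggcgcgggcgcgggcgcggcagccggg

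**Figure D3:**
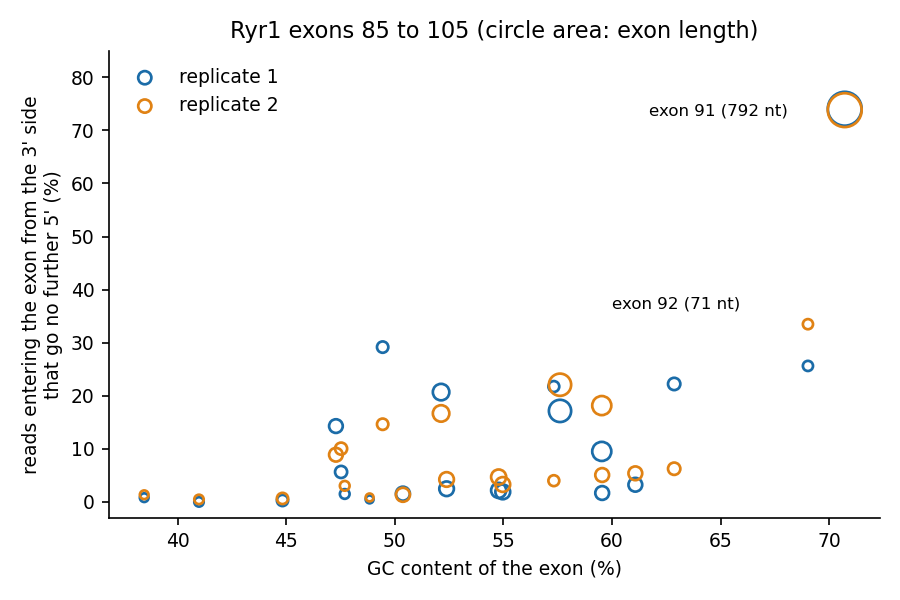
Share of reads that entered an exon of Ryr1-202 from its 3′ side and went no further, against the exon's GC content, for the 21 exons that at least 20 reads entered in each library. Circle area is exon length, and exon 91 stands apart at 70.7% GC with 74.1% (blue, replicate 1) and 73.8% (orange, replicate 2).

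**Figure D4:**
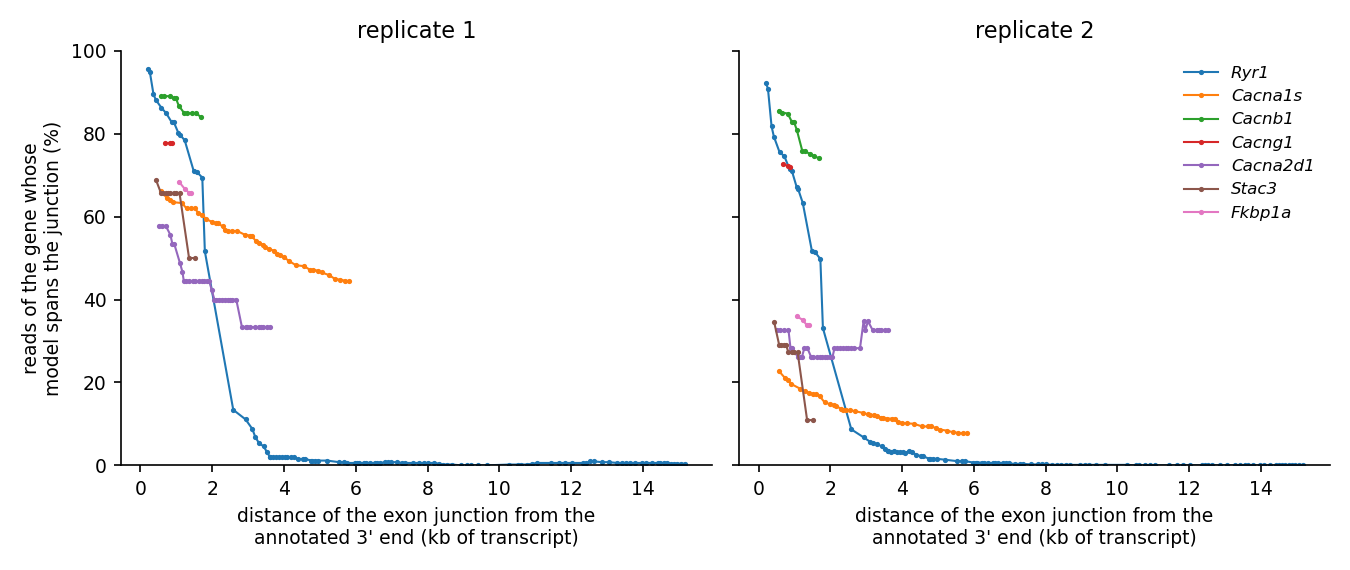
Share of a gene's reads whose model spans each exon junction, against the junction's distance from the annotated 3′ end along the transcript, in replicate 1 (left) and replicate 2 (right). Ryr1 drops at exon 91, about where 270 and 294 reads become 70 and 77, while Cacna1s starts lower and then falls slowly.

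Few reads reached the alternatively spliced segments of Ryr1, and no model has either of them as an exon. Exon 70, in 2 of the 3 coding transcripts, was in 0 of 6 informative reads in replicate 1 and 0 of 14 in replicate 2. Exon 83, in all 3 coding transcripts, was in 0 of 10 and 0 of 31 reads, which allows a share of up to 8.60% (exact Clopper-Pearson 95% bound over both). An informative read is one that holds the exon with both annotated boundaries, or has an intron across it. Reads with a shifted boundary, or that end in the exon, count for neither, so shares of informative reads do not measure shifted splice sites. The introns across exon 83 joined its annotated neighbours exactly in 9 of 10 and 30 of 31 reads. Across exon 70 the join was exact in 2 of 6 and 9 of 14 reads, while in 3 and 5 reads the model ran 17 nt past the annotated end of exon 69 before the intron. These 17 nt were not compared with the 15 nt of exon 70, so no upper limit is given for exon 70.

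Very short exons were seldom held in other genes too. For exons of other genes found in every coding transcript that spans them, with at least 20 informative reads over both libraries, none of 9 exons of 3 to 9 nt and none of 7 of 10 to 14 nt was held by over 50% of reads. Of 6 exons of 15 to 18 nt, 3 were held: an 18-nt exon of Trdn by 99.7% of reads, one of Atp2a2 by 93.0% and a 17-nt exon of Sugt1 by 95.3%. The other 3, among them an 18-nt exon of Atp2a1 crossed by 128611 reads, were held by none. At 19 to 27 nt 99 of 111 were held, and at 28 to 40 nt 474 of 475. Exons 70 and 83 of Ryr1 lie in the length range in which 3 of these 6 exons were held by no read. With optional exons of other genes included, 33 of 43 exons of 15 to 18 nt were held by none. The same held for 48 of 205 exons of 19 to 27 nt and 60 of 689 of 28 to 40 nt. The longer optional exons of Ryr1-208, of 27 and 30 nt, were each in 0 of 36 reads in replicate 1 and 0 of 48 in replicate 2. By counting error alone this allows up to 4.30%. Short exons near the 3′ end were held, the 43-nt exon 97 by 415 of 417 and 592 of 592 reads and the 52-nt exon 105 by 496 of 496 and 803 of 804.

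**Figure D5:**
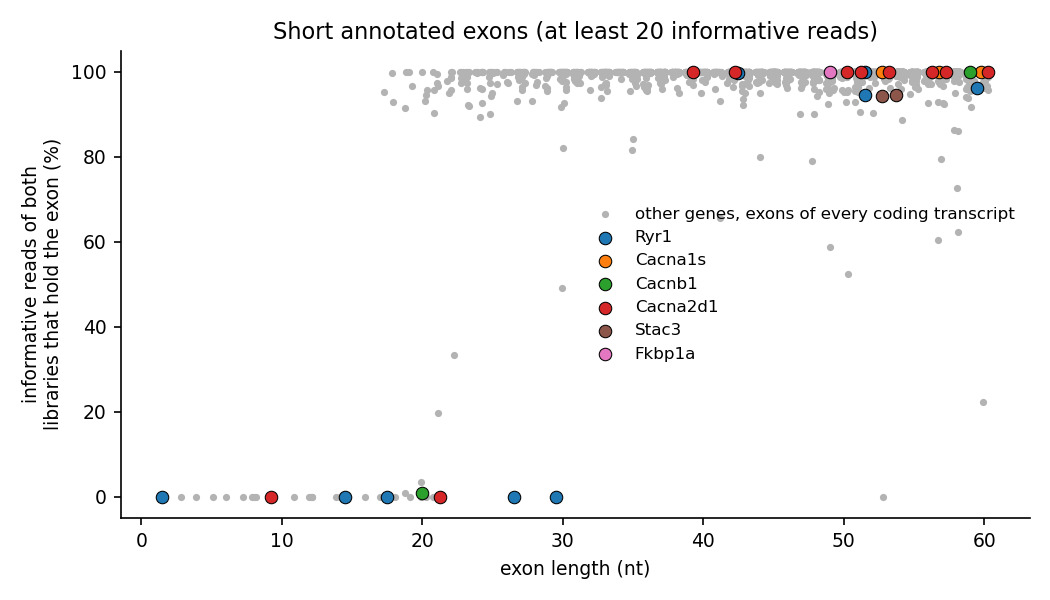
Share of informative reads of both libraries that hold an annotated exon, against its length, for exons up to 60 nt with at least 20 such reads. Grey points are exons of other genes found in every coding transcript. Coloured points are all annotated internal exons of the 7 genes in this range, optional ones included, set slightly apart sideways. The 15-nt and 18-nt exons of Ryr1 lie at 0, and the 57-nt exons of Cacna1s and Cacna2d1 at 100%.

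Cacna1s was read whole more often than Ryr1, and its exon 29 was always present. That exon was held by 260 of 260 reads in replicate 1 (98.6% to 100%) and by 106 of 106 in replicate 2 (96.6% to 100%), so the embryonic form without it was not detected at this depth. It encodes part of the extracellular loop next to the voltage sensor of the fourth repeat, and 2 of the 4 coding transcripts carry it. All 42 internal exons with at least 20 informative reads in each library were held by every such read. The full chain of 44 exons, Cacna1s-204, had 196 reads in replicate 1 and 57 in replicate 2. Of 64 distinct models counted in the same way, 34 were shared and held 94.3% and 98.0% of Cacna1s reads. A 9-nt optional exon of Cacna1s-206 was in 0 of 5 and 0 of 2 reads.

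Reads of Cacna1s included whole molecules, spliced reads that ended short of the start, and reads of the last exon alone. Single-exon models in the last exon (chr1:136119044-136119529 in replicate 1 and chr1:136118957-136119529 in replicate 2) held 156 reads, 33.9% of the gene, in replicate 1 and 610 reads, 77.3%, in replicate 2. The exact intervals of these 2 shares, 29.6% to 38.4% and 74.2% to 80.2%, do not overlap. Of the spliced reads alone, 207 of 304 (68.1%) in replicate 1 and 62 of 179 (34.6%) in replicate 2 began at an annotated first exon, and 204 and 60 of these used the outer one. The CPM of Cacna1s, 1.17 times as high in replicate 1 as in replicate 2, thus held different mixtures of reads. Counted in known models alone, replicate 2 was at 0.143 times replicate 1 and the gene was called lower.

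Cacnb1 reads carried the long exon 7, which marks β1a, the β1 subunit of skeletal muscle. Cacnb1-204, of 12 exons, took 165 of 219 reads (75.3%) in replicate 1 and 260 of 409 (63.6%) in replicate 2, and Cacnb1-202, with the outer first exon, took 5.02% and 7.82%. The long exon 7 was held by 184 of 185 reads in replicate 1 and 303 of 306 in replicate 2. Its short alternative was held by 2 of 190 reads (1.05%) and 2 of 328 (0.610%), or 0.831 ± 0.313% (SD, n = 2). The chain ended in the last exon joined at position 98005314 in 193 of 194 and 349 of 351 reads, and in the distal one joined at 98003362 in 1 and 2 reads. Single-exon reads in that distal exon (14 and 26 reads) were classed Genomic.

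The first exon of Cacnb1 was mostly the inner one. Of reads that began at an annotated first exon, 171 of 183 (93.4%, 88.8% to 96.6%) in replicate 1 and 269 of 301 (89.4%) in replicate 2 used the exon at chr11:98018273-98018372. The outer one, at chr11:98022342-98022634, took 12 and 32 reads. The 250 bases upstream of the annotated RefSeq start of each are shown from RefSeq (GRCm38.p6, chr11:98018373-98018622 and chr11:98022628-98022877, minus strand) because the reads separate the 2 first exons. The RefSeq outer start lies 7 nt inside the GENCODE exon, so the last 7 bases of that window are exonic there. Capitals mark CANNTG, the E-box letters, searched on both strands.
Cacnb1 inner start: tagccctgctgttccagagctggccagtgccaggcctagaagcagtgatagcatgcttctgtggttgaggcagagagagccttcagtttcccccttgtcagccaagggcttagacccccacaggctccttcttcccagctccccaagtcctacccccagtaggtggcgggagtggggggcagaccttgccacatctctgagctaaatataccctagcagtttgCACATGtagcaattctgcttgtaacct
Cacnb1 outer start: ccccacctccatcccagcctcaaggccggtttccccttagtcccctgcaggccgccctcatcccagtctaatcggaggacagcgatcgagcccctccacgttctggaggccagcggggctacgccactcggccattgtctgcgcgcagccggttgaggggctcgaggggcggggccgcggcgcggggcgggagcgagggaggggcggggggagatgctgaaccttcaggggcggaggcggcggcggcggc
The inner window had 56.0% GC and 1 CpG, and the outer one 73.2% GC and 26 CpG, against medians of 52.4% and 6 over 32841 promoters of the same length. CANNTG was found 1 time in the inner and 0 times in the outer window, and 66.2% of all promoters hold it. Neither window held CAGCTG (held by 13.0% of promoters), TATAAA (12.4%) or the MEF2 motif (2.92%) on either strand. Such letter matches describe the window and show no binding.

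Cacng1, with 4 exons and 1 annotated transcript, was the simplest of the set. Cacng1-201 took 136 of 179 reads in replicate 1 and 216 of 303 in replicate 2, and both internal exons were held by all 139 and all 218 informative reads. Single-exon reads of the last exon made up most of the rest, 38 reads (21.2%) and 79 reads (26.1%). Of the spliced reads, 97.8% in replicate 1 and 98.6% in replicate 2 began at the first exon.

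Cacna2d1 was read in 1 annotated form, at few reads. The known model Cacna2d1-201, of 39 exons, took 13 reads in replicate 1 and 9 in replicate 2, and no other annotated transcript was matched. Its 57-nt exon 19, in 1 of 8 coding transcripts, was held by 18 of 18 and 12 of 12 reads. Exon 23 of other transcripts, 21 nt, was in 0 of 20 and 0 of 12 reads, which by counting error alone allows up to 10.9%. A 9-nt exon was likewise in none. The 21-nt length lies in the range at which 99 of 111 exons in other genes were held, and the 9-nt length in a range at which none of 9 was. Exons of this stretch of Cacna2d1 are known to differ between the skeletal muscle and brain forms of α2δ-1. Reads of the last exon alone numbered 18 of 45 in replicate 1 and 24 of 46 in replicate 2.

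Stac3, the adaptor, had few reads that reached its start. Of reads that began at an annotated first exon, 11 of 16 in replicate 1 and 4 of 6 in replicate 2 used the donor at chr10:127501909, which the annotation has in the short transcript Stac3-203 alone. A model of class NIC joined that donor to a chain of 12 exons in 10 and 3 reads, while Stac3-201 had 3 and 2 reads. Stac3-202 had 2 reads in replicate 1 and none in replicate 2. In replicate 2, 36 of 55 reads were single-exon reads in the last exon (chr10:127508566-127508823, classed Genomic), and in replicate 1, 10 of 32 were single-exon reads there (chr10:127508387-127508815, classed ISM). Each internal exon from chr10:127507226 on was missing from at most 2 informative reads in a library.

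Fkbp1a, for FKBP12, showed reads of a whole transcript and single-exon reads. The latter cross no intron and do not show whether their molecule was spliced. Fkbp1a-201, of 5 exons, had 141 reads in replicate 1 and 147 in replicate 2. Single-exon Genomic models had 72 reads (31.6%, 25.6% to 38.0%) and 298 reads (64.1%, 59.5% to 68.5%), of which 65 and 280 lay at chr2:151560653-151560828, inside the last exon. That model ends 864 nt before the annotated end of the last exon. Of spliced reads, 9 of 156 in replicate 1 and 12 of 167 in replicate 2 were in models that end in the same region. Another 147 and 155 were in models that end near the annotated end. Most of these were Fkbp1a-201 reads (141 and 147), whose model ends are annotated ends. Where those molecules ended was thus not seen, and the shares of spliced reads at the 2 ends are not a measured contrast. The 20 annotated bases after position 151560828 hold 4 A, and the 40 bases before it hold CATAAA and no AATAAA. Beyond this, 8 of 152 reads (5.26%) and 4 of 161 (2.48%) left the exon at chr2:151559458 by a donor 4 nt upstream of the usual one.

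No exon of the 7 genes that could be tested was called different between the libraries. Of the exons with at least 20 informative reads in each library, 83 in all, 71 were held by at least 99% of reads in both. None of the 25 member exons that could be tested was called, where calling one took an adjusted p below 0.05 with a shift of 10 percentage points (Fisher's exact test, Benjamini-Hochberg over 4244 exons). Of all exons tested 0.283% were called, and none of the 25 had an unadjusted p under 0.05. The test needs reads both with and without an exon, and all 25 were in Ryr1, Cacnb1 and Fkbp1a. Each had few reads on its rarer side, and the largest shift was 5.89 points, in a 129-nt exon of Ryr1. Exons of Cacna1s and Cacng1 with enough reads were held by every read and could not enter. Cacna2d1 and Stac3 had no exon with 20 informative reads in each library. For Ryr1 the reads lost to exons are few long-range joins: from exon 77 to exon 91, each exon other than exon 83 was missing from 1 or 2 informative reads in a library.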

How the data were processed

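Long-read RNA sequencing was read from 2 gastrocnemius libraries of 1 group. The authors deposited, for each library, raw counts of reads assigned to each transcript model, with an annotation of these models that carries TALON numbers. Per the README among the files, both rest on mm10 and GENCODE M21. The aligner, read correction and filters were not given in the sources used here. Counts were summed over the models of a gene and scaled to the reads in annotated mouse genes, leaving out spike-ins, antisense loci and intergenic loci. Genes with at least 10 reads summed, and internal exons with at least 20 informative reads in each library, entered Fisher's exact test, adjusted over all of them by the Benjamini-Hochberg method. With 1 group the test compares these 2 libraries. Intervals are exact 95% Clopper-Pearson intervals. These intervals and the p-values account for counting error alone and hold no spread between animals. No molecular identifiers mark reads of the same molecule, so repeated reads of 1 molecule could make the intervals too narrow. Levels in CPM use the counts as deposited. Spliced models were matched between libraries by annotated transcript or intron chain, and single-exon models were pooled per gene and class. Ends of deposited known models are annotated ends. The named genes are the 7 members, relatives with reads, and of the coupling list those called and the 5 most abundant. Named models are those leading or holding at least 5% of reads, and named exons are those under 60 nt or skipped by at least 1% of reads. Members and lists were chosen with earlier results of these data known. Both tests were tested on simulated data. Python 3.11.15, scipy 1.17.1, pandas 2.3.3, edgeR 4.0.16 (TMM factors) and DESeq2 1.42.0 (size factors) were used, the last pair for scaling alone.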

Additional observations from a re-analysis of the deposited data

Results flagged for a closer look

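The files also hold reads in loci that TALON placed on the strand opposite to the 7 genes, which enter no comparison above. They are listed where a library held more than 3 such reads. Ryr1 had 10 antisense reads in replicate 1 and 22 in replicate 2, and Cacna1s had 4 in replicate 1. Cacnb1 had 8 and Fkbp1a 9 in replicate 2. Cacna2d1 had 14 in replicate 1 and 73 in replicate 2, which is 31.1% and 159% of its sense reads, all in single-exon models. Of these, 5 and 20 overlapped an annotated exon of Cacna2d1. Whether the libraries keep the strand was not given in the sources used here.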

How the results depend on the processing

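No paired analysis was possible because both libraries belong to 1 group. The summed level of the 7 genes was 1980 ± 192 CPM (SD, n = 2) and lay between 1844 and 2115 CPM with either library left out. Counted in known models alone it was 965 CPM, and without ISM and Genomic models 867 CPM. The count of members called, 0 as reported, was 1 with the total that includes antisense and intergenic reads, the total without Atp2a1, TMM factors, DESeq2 size factors (Cacna2d1 at 0.490, 0.467, 0.490 and 0.493) and known models alone (Cacna1s at 0.143). It was 2 without ISM and Genomic models (Cacna1s at 0.172 and Stac3 at 0.246), and 0 without a filter or with at least 50 reads. Fkbp1a, at 1.01, turned to the other side of 1 under 6 alternatives: 0.978, 0.931, 0.521 (known models), 0.579 (without ISM and Genomic models), 0.978 (TMM) and 0.985 (DESeq2), where the cause was not tested. Leaving Atp2a1 out of the total put the median log2 ratio of all genes at -0.07, against 0.05 as reported. The number of genes led by a known model was 2, ranged from 2 to 4 with a library left out, and was 5 without ISM and Genomic models. Other alternatives kept the counts of exons, exon differences and listed genes within 1.5 times. Depth limits Stac3 and Cacna2d1, with under 60 reads in either library, and the exons of Ryr1 upstream of exon 86.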
